A study of Mus musculus with 18 samples.

Results

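Mucins are large glycoproteins whose protein cores carry dense O-linked sugar chains. Gel-forming mucins are secreted and link into the polymers that give mucus its viscosity, whereas membrane mucins stay anchored at the cell surface, where they form a barrier and can take part in signaling. At the eye, goblet cells of the conjunctiva secrete gel and the epithelia of cornea and conjunctiva carry a membrane mucin coat, while the lacrimal gland (LG) contributes mostly water, salts and proteins to the tears. The genes described here are the 8 mucin genes Muc1, Muc4, Muc5b, Muc13, Muc15, Muc16, Muc19 and Muc20, taken by gene name from the 54232 genes of the deposited count table. Muc5b and Muc19 encode secreted gel-forming mucins, and the other 6 encode membrane mucins.

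After depletion of ribosomal RNA, 1 gland from each of 18 male mice was sequenced. The control strain was BALB/cJ (BALB/c), and the disease strain was NOD.B10Sn-H2b/J (NOD.H-2b), each with 3 mice per age, which was 2 months (2M), 4 months (4M) or 6 months (6M). NOD.H-2b is a model of Sjögren's syndrome that does not become diabetic and carries the H2b haplotype of C57BL/10SnJ. BALB/c is a separate inbred strain, so disease and every other strain difference cannot be told apart. The totals ranged from 49480781 counts in replicate 3 of NOD.H-2b at 4M to 103936830 counts in replicate 1 of BALB/c at 6M.

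The labelled tissue was checked against secretory and duct markers. All 13 genes of a secretory list, most of them acinar but with Ltf, also found in ducts, and Lyz2, also a macrophage gene, passed the filter on low counts (edgeR's filterByExpr) in each strain comparison, and Scgb2b7, which encodes a secretoglobin, held between 3084711 and 7030038 counts per mouse. The secretory list summed to between 109543 and 188802 CPM (counts-per-million, on TMM-normalized library sizes) per mouse. Scgb2b7 made up 42.1% of the summed level, and Scgb2b7, Scgb2b2 and Scgb2b24 had means of 64617, 52441 and 24887 CPM. The secretory sum thus says little of the other genes on its list. The 12 duct markers summed to between 578 and 1048 CPM, with the transcription factor gene Ehf as the most abundant. Ehf, Krt8 and Krt18 had means of 306, 216 and 212 CPM, and Elf5 followed at 47.2 CPM. At the low end Krt19, Wfdc2 and Cftr had means of 0.403, 0.324 and 0.292 CPM. Krt8 and Krt18 are general epithelial markers, so the duct sum does not measure ducts alone. Transcripts of both lists were thus present in each of the 18 glands.

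The 8 mucin genes were near the lower end of what the sequencing could count. Together they held 874 of all counts from the 18 mice, or 0.810 CPM before normalization. Muc1 made up 48.9% of these counts and Muc20 made up 35.4%. In single mice the sum of the 8 mucin genes ran from 5 counts in replicate 3 of BALB/c at 2M to 115 counts in replicate 1 of NOD.H-2b at 4M. A floor of 3 counts is used below, since a gene with 0 counts may still have been present at up to that level, which in a single mouse corresponds to between 0.0322 and 0.0701 CPM. Floors and counting intervals cover counting error only, not the differences between mice.

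Levels of different genes are compared per length, as CPM per kilobase of exon. In the mean over the 18 mice Muc1 was the most abundant of the 8 mucin genes at 0.166 CPM per kilobase, and 43.0% of the 21983 protein-coding genes had a lower level. Muc20 came next at 0.0679 CPM per kilobase, followed by Muc15 at 0.0130. Muc4 at 0.00394 and Muc13 at 0.00343 CPM per kilobase were close to each other. The levels of Muc16, Muc5b and Muc19 rested on 14, 7 and 2 counts in all, so their order is not resolved. Muc1, Muc20 and Muc15 also led in NOD.H-2b at 6M, where their means were 0.231 ± 0.0459, 0.109 ± 0.0159 and 0.0224 ± 0.0104 CPM per kilobase (SD, n = 3). In BALB/c at 4M, Muc1 (0.0877 ± 0.0507) and Muc20 (0.0552 ± 0.0424 CPM per kilobase, SD, n = 3) differed by less than their spread.

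**Figure D1:**
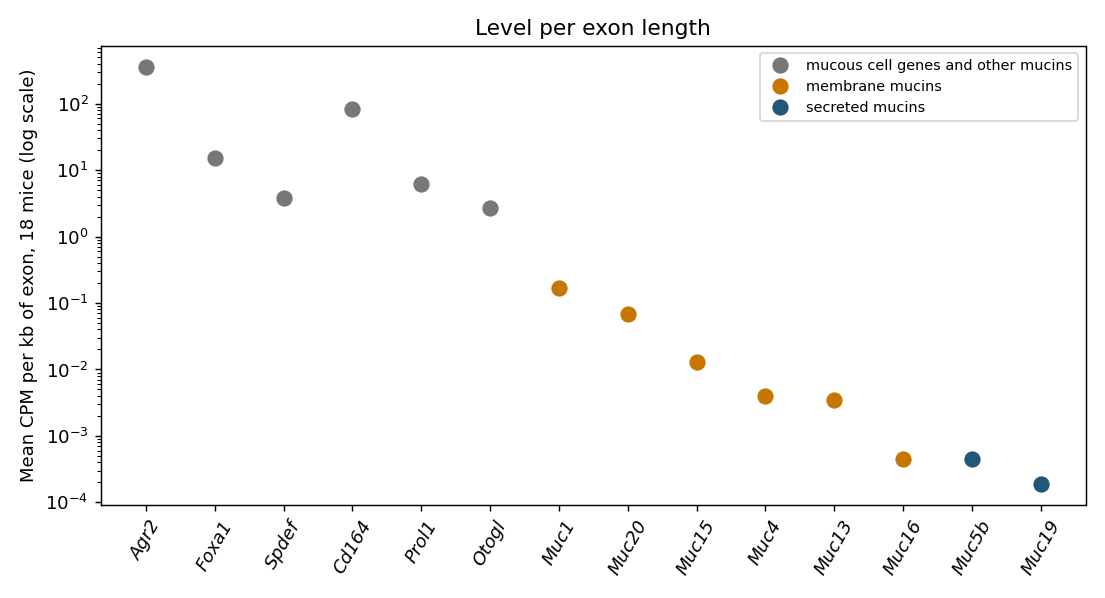
Mean CPM per kilobase of exon over 18 mice on a log axis, for the 8 mucin genes (orange, membrane; blue, secreted) and 6 genes of the mucous cell program or the wider mucin group (gray). Muc1 is the highest of the 8 at 0.166, and Agr2 is the highest gene shown at 360.

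The secreted gel-forming mucins were almost without counts in both strains. Muc5b (chr7:141839070-141873084), a main mucin of airway and salivary mucus, had 0 counts in each of the 9 BALB/c mice. In NOD.H-2b it had 1 count in replicate 1 at 2M, 6 counts in replicate 2 at 6M and 0 counts in the other 7 mice. A single gland therefore held 6 of the 7 Muc5b counts. Summed over the ages, Muc5b in NOD.H-2b was at least 2.15-fold above the floor of 3 counts over the BALB/c mice, and without that gland both strains were under the floor. The same gland also had the most counts of Dcpp1 (9 counts) and Dcpp3 (14 counts), salivary gland markers singled out after their values were seen. In the other 17 mice Dcpp1 had at most 2 counts and Dcpp3 at most 5. The salivary list summed to 7.02 CPM in that gland, where the 18 mice ranged from 1.89 to 13.2 CPM. Prol1 made up 89.9% of the summed level of the list, so the sum says little of its other genes. The part of salivary gland RNA in the Muc5b counts was not tested.

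Muc19 (chr15:91838326-91934555), the gel-forming mucin of sublingual gland mucus, had 1 count in replicate 2 of BALB/c at 2M, 1 count in replicate 1 of NOD.H-2b at 6M and 0 counts in the other 16 mice. No fold is given, since both strains were under the floor. The annotation marks Muc19 as a processed transcript with an error in the reference genome, and 95 bases of its exons are shared with its neighbor Smgc, which had at most 1 count in any mouse. Of the salivary gland markers, Smr3a had 0 counts in each mouse, Bpifa2, Dcpp2, Klk1b22 and Smgc had 3 counts or fewer, and Prol1 made up 89.9% of the summed level of the list.

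Other mucins and mucin-like genes ranged widely. Of 22 listed 16 were in the table, and Muc3, Muc5ac, Muc6, Smgc and Otog had 3 counts or fewer in every mouse. Muc5ac is the gel-forming mucin of conjunctival goblet cells. The gel-forming Muc2 had 1 to 10 counts in each mouse, the secreted Ovgp1 had 8 to 63 and Otogl had 849 to 2868, all 3 singled out after their values were seen. Cd164, a small sialomucin of cell membranes, had the most counts of that list, from 16184 to 40481 per mouse, and its mean level was 82.1 CPM per kilobase.

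Part of the mucous cell program was well expressed in the same glands. Agr2, which encodes a disulfide isomerase needed for mucin folding, had between 19909 and 50140 counts per mouse. The transcription factor genes Foxa1 (2320 to 4930 counts) and Spdef (327 to 919 counts) were also counted in each mouse. In contrast, 11 of the 22 program genes in the table had 3 counts or fewer in every mouse, among them the trefoil factor genes Tff1, Tff2 and Tff3 and the goblet cell genes Clca1 and Zg16.

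Membrane mucins were compared between the strains at each age, to ask whether their transcripts differ in the diseased gland. Muc1 was upregulated in NOD.H-2b at all 3 ages. Muc20 was upregulated at 6M and was uneven between mice at 2M and 4M. Muc15, Muc4 and Muc16 had more counts in NOD.H-2b but were too sparse for the test of each age, and Muc13 was too sparse to show a difference. The comparisons at different ages share no mice.

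Muc1 (chr3:89229057-89233381) encodes a membrane mucin of glandular epithelia whose cytoplasmic tail takes part in signaling. At 2M it had 3, 10 and 2 counts in BALB/c and 37, 31 and 47 counts in NOD.H-2b. At 4M Muc1 had 4, 15 and 16 counts in BALB/c and 54, 41 and 43 counts in NOD.H-2b. At 6M it had 13, 5 and 5 counts in BALB/c and 32, 34 and 35 counts in NOD.H-2b. Every NOD.H-2b mouse had more Muc1 counts than every BALB/c mouse, and in CPM the lowest NOD.H-2b mouse (0.418) was above the highest BALB/c mouse (0.305).

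At 2M the mean CPM of Muc1 was 0.0907 ± 0.0777 in BALB/c, against 0.606 ± 0.133 in NOD.H-2b (SD, n = 3). It was 0.206 ± 0.119 and 0.770 ± 0.121 CPM at 4M, and 0.121 ± 0.0169 and 0.542 ± 0.108 CPM at 6M (SD, n = 3). Tests used edgeR's quasi-likelihood method, and p-values were adjusted over all genes tested by Benjamini and Hochberg (FDR). The log2 fold change of Muc1 at 2M was 2.75 (SE 0.52, edgeR FDR 0.00142). It was 1.90 at 4M (SE 0.45, edgeR FDR 0.00732) and 2.14 at 6M (SE 0.38, edgeR FDR 0.000985). The strains were thus apart by more than the spread between mice at each age. In a whole gland, more cells with a transcript and more RNA per cell cannot be told apart.

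Muc20 (chr16:32777419-32797435) encodes a membrane mucin that binds the receptor Met. At 2M it had 0, 8 and 1 counts in BALB/c and 4, 22 and 25 counts in NOD.H-2b. At 4M Muc20 had 8, 5 and 28 counts in BALB/c and 47, 47 and 16 counts in NOD.H-2b. At 6M it had 7, 5 and 2 counts in BALB/c and 35, 21 and 28 counts in NOD.H-2b. The strains overlapped at 2M, where replicate 1 of NOD.H-2b was low, and at 4M, where replicate 3 of BALB/c was high, and they did not overlap at 6M.

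At 2M the mean CPM of Muc20 was 0.0537 ± 0.0783 in BALB/c, against 0.264 ± 0.175 in NOD.H-2b (SD, n = 3). It was 0.222 ± 0.171 and 0.586 ± 0.230 CPM at 4M, and 0.0761 ± 0.0299 and 0.438 ± 0.0641 CPM at 6M (SD, n = 3). At 6M the log2 fold change of Muc20 was 2.52 (SE 0.43, edgeR FDR 0.000766). At 4M it was 1.36 (SE 0.54), and the edgeR FDR of 0.0693 missed the threshold of 0.05. This result turned on single glands. Without replicate 3 of BALB/c the log2 fold change at 4M was 2.22 (edgeR FDR 0.0124), without replicate 3 of NOD.H-2b it was 1.64 (edgeR FDR 0.0414), and over all alternatives the FDR ranged from 0.0124 to 0.201. At 2M Muc20 did not pass the filter, and the ratio of its summed counts between the strains was 4.91 (95% counting interval 2.39 to 11.3), which turned on replicate 2 of BALB/c, since this gland held 8 of the 9 BALB/c counts.

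**Figure D2:**
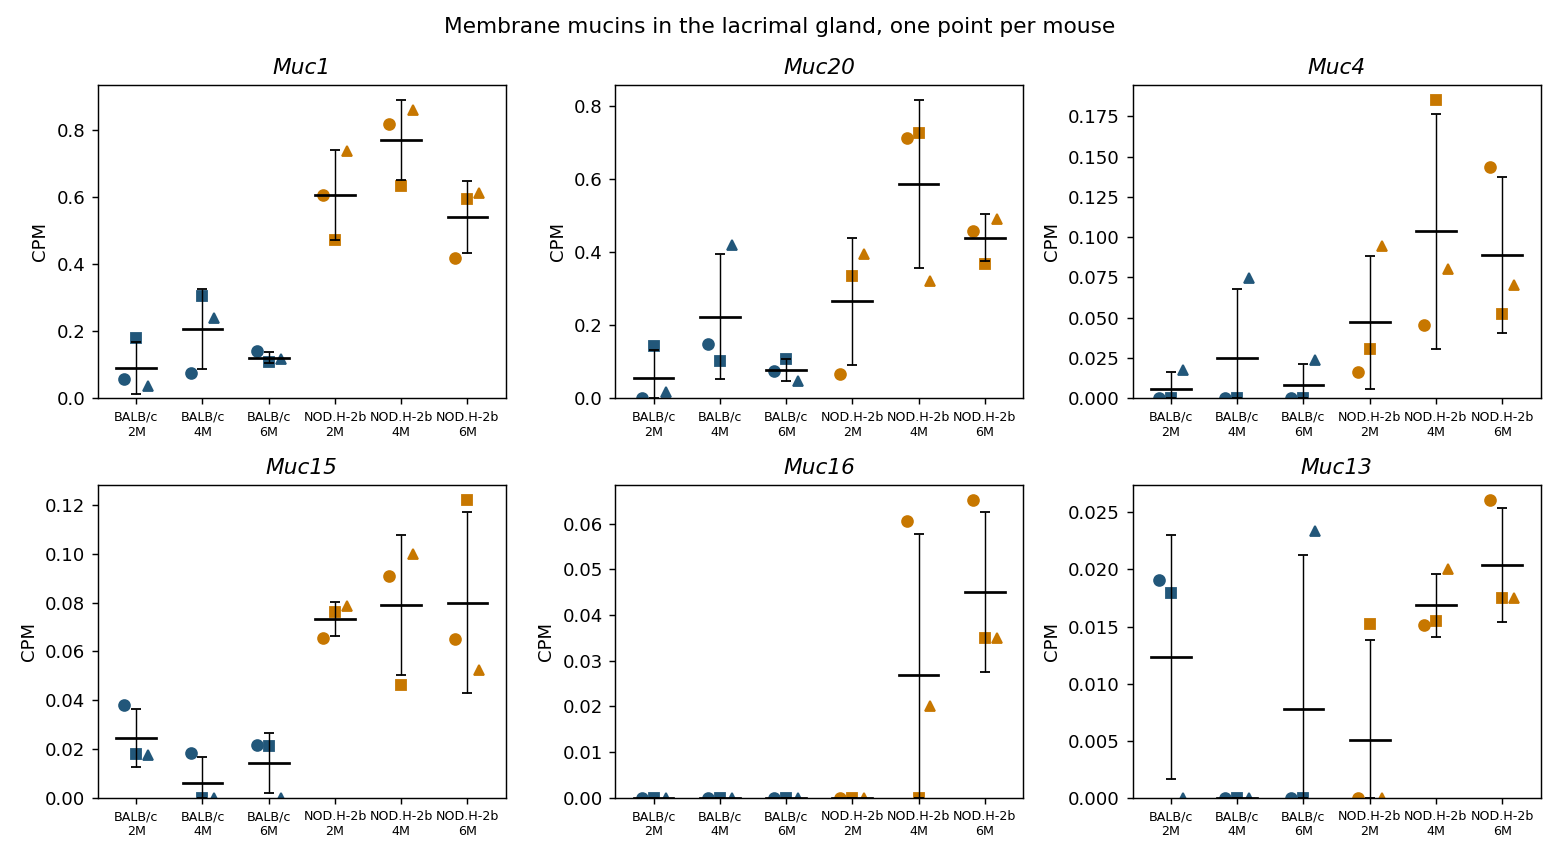
CPM of 6 membrane mucin genes in each mouse (circle, square and triangle for replicates 1, 2 and 3), with the mean (line) and SD (bars, stopped at 0) of each group of 3 mice. For Muc1 the NOD.H-2b mice lie between 0.418 and 0.861 CPM and the BALB/c mice between 0.0353 and 0.305 CPM.

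Differentially expressed genes (DEGs) had an FDR under 0.05 and at least a 2-fold change. At 2M, 1 of the 8 mucin genes, Muc1, was tested and was called higher in NOD.H-2b, where 12% of all genes tested were called higher and 3.76% lower. At 4M, Muc1 and Muc20 were tested and 1 of the 2, Muc1, was called higher, where 15.6% of all genes were called higher and 4.72% lower. At 6M both were tested and both were called higher, where 18.8% of all genes were called higher and 6.03% lower. By the FDR alone the same mucin genes passed, beside 22.5% of all genes higher and 17.2% lower at 2M, 23.4% and 19.2% at 4M, and 28.6% and 25.8% at 6M. Neither Muc1 nor Muc20 passed the filter among BALB/c mice alone, so entry into the test depended on the NOD.H-2b mice and favored genes that are higher there. These calls do not speak for the other 6 mucin genes.

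The strain difference averaged over the 3 ages, a contrast added after the data were seen, used all 18 mice in a single edgeR fit. The log2 fold change was 2.24 for Muc1 (SE 0.27, edgeR FDR 6.36e-07) and 2.03 for Muc20 (SE 0.42, edgeR FDR 0.000335). Both were called higher, where 17.6% of all genes tested were called higher.

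For the sparse membrane mucins the strains were compared by exact permutation of the mice within each age, which was also added after the data were seen. The smallest two-sided p of this test is 0.00025 over 8000 arrangements, whereas 3 mice against 3 at a single age cannot give a p under 0.1. It was run on mean CPM for the 6 membrane mucins, without adjustment. Muc1 gave the smallest possible p of 0.00025, and Muc20 gave an exact permutation p of 0.0015.

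Muc15 (chr2:110721340-110739527) encodes a membrane mucin first known from milk. At 2M it had 2, 1 and 1 counts in BALB/c and 4, 5 and 5 counts in NOD.H-2b. At 4M Muc15 had 1, 0 and 0 counts in BALB/c and 6, 3 and 5 counts in NOD.H-2b. At 6M it had 2, 1 and 0 counts in BALB/c and 5, 7 and 3 counts in NOD.H-2b. Every NOD.H-2b mouse had at least 3 counts of Muc15 and every BALB/c mouse at most 2. The mean CPM over the ages was 0.0775 in NOD.H-2b, against 0.0150 in BALB/c (two-sided exact permutation p = 0.00025). The summed counts of 43 and 8 gave a ratio of 4.96 (95% counting interval 2.30 to 12.2). Muc15 shares 61 exon bases with Ano3 on the opposite strand, which had at most 10 counts in any mouse.

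Muc4 (chr16:32735886-32782391) encodes a large membrane mucin that binds the receptor Erbb2 and is part of the coat of the ocular surface. At 2M it had 0, 0 and 1 counts in BALB/c and 1, 2 and 6 counts in NOD.H-2b. At 4M Muc4 had 0, 0 and 5 counts in BALB/c and 3, 12 and 4 counts in NOD.H-2b. At 6M it had 0, 0 and 1 counts in BALB/c and 11, 3 and 4 counts in NOD.H-2b. Muc4 was counted in 9 of 9 NOD.H-2b mice and in 3 of 9 BALB/c mice, and the strains did not overlap at 6M. The mean CPM over the ages was 0.0798 in NOD.H-2b, against 0.0128 in BALB/c (two-sided exact permutation p = 0.00225). The summed counts of 46 and 7 gave a ratio of 6.06 (95% counting interval 2.72 to 15.9), which turns on replicate 3 of BALB/c at 4M, since this gland held 5 of the 7 BALB/c counts.

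Muc16 (chr9:18495455-18674530) encodes a very large membrane mucin of the ocular surface that binds mesothelin. It had 0 counts in the 9 BALB/c mice and in the 3 NOD.H-2b mice at 2M. In NOD.H-2b it had 4, 0 and 1 counts at 4M and 5, 2 and 2 counts at 6M. NOD.H-2b at 6M was thus the only group with Muc16 counts in every mouse. At 6M Muc16 was at least 2.88-fold above the floor of 3 counts over the BALB/c group, which was 0.0164 CPM, and at 4M it was at least 1.57-fold above it. The bound at 4M rests on replicate 1, which held 4 of the 5 counts, and without it Muc16 was under the floor. At 2M a difference was not detectable at this depth. The two-sided exact permutation p for Muc16 over the 3 ages was 0.02, the smallest that counts with this many zeros allow.

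Muc13 (chr16:33794037-33819934), a membrane mucin best known from the gut, had at most 2 counts in any mouse. At 4M it had 1 count in each NOD.H-2b mouse and 0 counts in each BALB/c mouse. Its summed counts over the ages were 8 in NOD.H-2b and 3 in BALB/c, a ratio of 2.46 (95% counting interval 0.590 to 14.4). The two-sided exact permutation p for Muc13 was 0.138, so a strain difference was not detectable at this depth.

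Ages were compared within each strain on the 6 mice of each pair, so the age comparisons of a strain share mice. In BALB/c none of the 8 mucin genes passed the filter in any pair of ages. Both Muc1 and Muc20 had their highest BALB/c mean at 4M, where replicate 3 held 28 of the 41 Muc20 counts, and the BALB/c ages overlapped for both genes.

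In NOD.H-2b, Muc1 and Muc20 were tested between ages and no change was called. The log2 fold change of Muc1 was 0.34 from 2M to 4M (SE 0.29, edgeR FDR 0.459), -0.50 from 4M to 6M (SE 0.30, edgeR FDR 0.458) and -0.19 from 2M to 6M (edgeR FDR 0.661). Although it missed the threshold, all 3 mice at 6M had less Muc1 in CPM than each mouse at 4M. For Muc20 the same steps gave 1.15 (SE 0.57, edgeR FDR 0.209), -0.42 (edgeR FDR 0.602) and 0.70 (edgeR FDR 0.316). In these 3 comparisons 0 mucin genes were called by edgeR, 0 had an unadjusted p under 0.05 and 0 were called by DESeq2. Of all genes tested, 6.6% were called from 2M to 4M, 0.00555% from 4M to 6M and 12.5% from 2M to 6M, and 32%, 13.8% and 49% had an unadjusted edgeR p under 0.05. Of the sparse mucins, Muc16 went from 0 counts over the group at 2M to 5 counts at 4M and 9 counts at 6M, whereas Muc15 had 14, 14 and 15 counts.

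Whether the strain difference changed from 2M to 6M was tested as strain by age in the fit of all 18 mice, which shares every mouse with the average over the ages. The change was -0.60 on the log2 scale for Muc1 (SE 0.70, edgeR FDR 0.601) and 0.24 for Muc20 (SE 1.23, edgeR FDR 0.926). These errors leave room for a change of more than 2-fold either way in Muc20. By edgeR 0 of these mucin genes were called, 0 had an unadjusted p under 0.05 and 0 were called by DESeq2, while 5.11% of all genes were called and 31.1% had an unadjusted edgeR p under 0.05.

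In mean CPM the groups ordered for Muc1 as NOD.H-2b at 4M, 2M and 6M, then BALB/c at 4M, 6M and 2M. For Muc20 the order was NOD.H-2b at 4M, 6M and 2M, then BALB/c at 4M, 6M and 2M. The neighbors NOD.H-2b at 2M (0.264 ± 0.175 CPM) and BALB/c at 4M (0.222 ± 0.171 CPM, SD, n = 3) differed in Muc20 by less than their spread. In Muc1 the same held for NOD.H-2b at 2M (0.606 ± 0.133 CPM) and 6M (0.542 ± 0.108 CPM, SD, n = 3). No change between ages was called for either gene, so the order within a strain is not resolved.

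Muc4 and Muc20 lie tail to tail on chromosome 16, on opposite strands, and 627 exon bases belong to both. These bases are 15.6% of the Muc20 exons and 5.33% of the Muc4 exons. The labels name the NEBNext Ultra II RNA kit without calling it directional, and the strand setting of the counting step is not given. How reads from the shared bases were counted is therefore unknown, and their part in the Muc4 and Muc20 results was not tested.

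**Figure D3:**
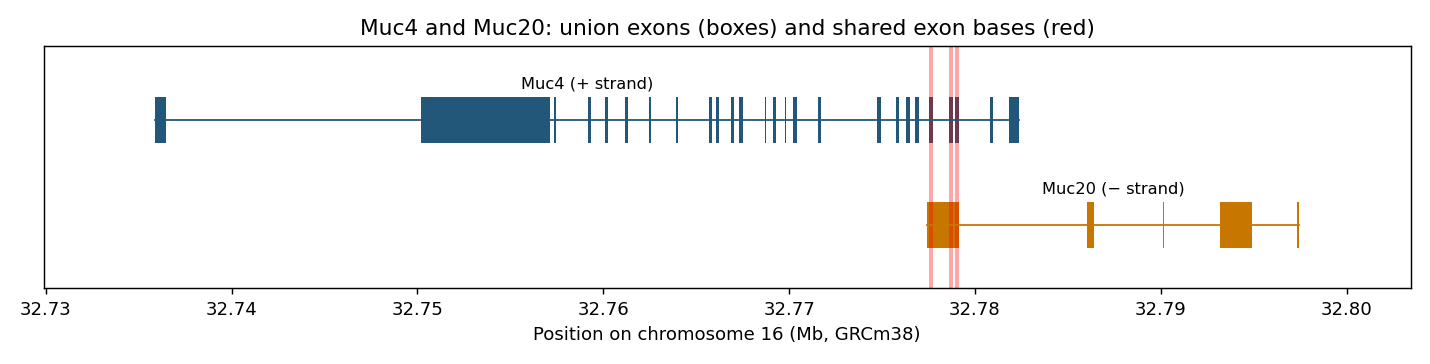
Map of Muc4 (plus strand) and Muc20 (minus strand) on chromosome 16 of GRCm38, with exons as boxes and the exon bases common to both in red. The common bases total 627.

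Promoter sequences are shown for Muc1, Muc4 and Muc20, since these 3 had the most counts or share a locus and were higher in the same strain. RefSeq promoters of GRCm38.p6 could be matched for 5 of the 8 mucin genes, not for Muc5b, Muc15 and Muc19. Each sequence is the 250 bases before the start, read 5' to 3' along the gene, at chr3:89228806-89229055 (plus strand) for Muc1, chr16:32735636-32735885 (plus strand) for Muc4 and chr16:32797436-32797685 (minus strand) for Muc20. Both strands were searched for GGGCGG, bound by Sp1, for TATAAA, bound by the TATA-binding protein, for TTCNNNGAA, bound by STAT proteins, for CCGGAAG, bound by ETS proteins, and for 2 copies of GAAA spaced by 2 bases, bound by IRF proteins. Capitals mark the matches.
Muc1: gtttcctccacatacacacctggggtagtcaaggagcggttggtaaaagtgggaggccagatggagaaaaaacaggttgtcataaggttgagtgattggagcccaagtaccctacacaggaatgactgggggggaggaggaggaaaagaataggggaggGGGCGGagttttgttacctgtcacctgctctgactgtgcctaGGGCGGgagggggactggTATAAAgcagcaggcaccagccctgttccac
Muc4: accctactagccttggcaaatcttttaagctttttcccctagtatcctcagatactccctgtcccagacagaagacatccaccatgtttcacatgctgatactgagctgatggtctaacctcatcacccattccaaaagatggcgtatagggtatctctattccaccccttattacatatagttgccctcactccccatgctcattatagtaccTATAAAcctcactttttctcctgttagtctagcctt
Muc20: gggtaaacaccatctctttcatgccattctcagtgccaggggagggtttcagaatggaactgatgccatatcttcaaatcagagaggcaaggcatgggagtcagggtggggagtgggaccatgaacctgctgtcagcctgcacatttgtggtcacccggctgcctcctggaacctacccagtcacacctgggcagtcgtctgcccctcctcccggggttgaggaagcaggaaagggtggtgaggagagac
Muc1 had 2 matches to GGGCGG and 1 to TATAAA, Muc4 had 1 match to TATAAA, and Muc20 had none of the 5 motifs. Of all 32851 promoters, 32.7% had a match to GGGCGG, 12.4% to TATAAA, 7.02% to TTCNNNGAA, 6.91% to CCGGAAG and 2.98% to the spaced GAAA copies. No motif of this set was common to the 3 sequences, and a match describes letters only.

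Genes with a pattern like that of Muc1 or Muc20 were ranked among 13066 genes by Pearson's r of log2 CPM over the 18 mice, as a description without a test. For Muc1 the highest were Cpne2 (r = 0.959), Gm20752 (r = 0.947) and Kcnj15 (r = 0.946). After the mean of each group was subtracted, the highest for Muc1 were Mettl6 (r = 0.893), Cpne2 (r = 0.823) and Evi5l (r = 0.811). For Muc20 they were Iglc3 (r = 0.942), Kcna3 (r = 0.914) and Rasgrp4 (r = 0.913), and after subtraction Iglc3 (r = 0.926), Iglc2 (r = 0.906) and Irf4 (r = 0.902). Iglc3 and Iglc2 are immunoglobulin genes, and Irf4 is a transcription factor gene of activated lymphocytes. With a prior count of 0.5 in place of 2, Iglc3 stayed first for Muc20 by both measures and the other genes named for Muc20 were replaced by Ighv5-17, Igkv10-94 and Ptpn7, of which the first 2 were immunoglobulin genes.

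B cell markers differed between the strains. At 4M and 6M all 7 were called higher in NOD.H-2b, while at 2M 2 of the 3 tested were called, beside 12%, 15.6% and 18.8% of all genes called higher at 2M, 4M and 6M. Their sum in NOD.H-2b was 0.820, 26.4 and 10.4 CPM in replicates 1, 2 and 3 at 2M, 287, 151 and 130 CPM at 4M, and 401, 203 and 271 CPM at 6M. In BALB/c it was 0.344, 0.664 and 0.123 CPM at 2M, 1.16, 1.08 and 1.95 CPM at 4M, and 0.966, 1.62 and 0.888 CPM at 6M. The most abundant marker, Pax5, had at most 3 counts in any BALB/c mouse.

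The 7 T cell markers were all called higher in NOD.H-2b at each age, beside the same shares of all genes. Their sum in NOD.H-2b was 7.71, 27.3 and 16.8 CPM at 2M, 102, 57.6 and 56.0 CPM at 4M, and 88.9, 64.4 and 82.9 CPM at 6M. In BALB/c it was 0.535, 0.413 and 0.159 CPM at 2M, 1.27, 0.630 and 4.77 CPM at 4M, and 1.32, 2.00 and 1.36 CPM at 6M. Cd4 was the most abundant.

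Macrophage markers were also higher, with 7, 6 and 7 of 7 called at 2M, 4M and 6M, beside 12%, 15.6% and 18.8% of all genes, and Csf1r as the most abundant. Their sum in NOD.H-2b was 123, 139 and 141 CPM at 2M, 197, 173 and 182 CPM at 4M, and 243, 181 and 175 CPM at 6M. In BALB/c it was 42.1, 43.1 and 31.8 CPM at 2M, 48.8, 50.5 and 81.3 CPM at 4M, and 45.0, 54.2 and 44.5 CPM at 6M. Of 5 plasma cell markers 1, 3 and 2 were called higher at 2M, 4M and 6M and 0 lower, beside the same shares of all genes. By the FDR alone 1, 3 and 3 were higher and 1 lower at each age. By the FDR alone 22.5%, 23.4% and 28.6% of all genes were higher and 17.2%, 19.2% and 25.8% lower. Jchain was the most abundant in the mean. Jchain had 237 to 48770 counts per mouse and Derl3 had 6047 to 17118, so Derl3 outweighed Jchain in some mice and the sum does not follow Jchain alone. Their sum in NOD.H-2b was 234, 320 and 294 CPM at 2M, 631, 848 and 648 CPM at 4M, and 759, 806 and 674 CPM at 6M. In BALB/c it was 225, 223 and 228 CPM at 2M, 362, 332 and 419 CPM at 4M, and 358, 484 and 360 CPM at 6M. The part of immune cells in the results for Muc20, Muc1 and the other mucins was not tested.

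Muc4 and Muc16 are mucins of the ocular surface, so markers of its epithelium were examined. Krt12, Krt13, Krt6b and Sprr2a3 had 0 counts in each mouse. Krt4, Krt6a, Krt78 and Sprr1a had counts in some mice, with at most 5, 3, 2 and 7. Of the 9 markers only Cldn4, 97.4% of the summed level, was tested, and it was called higher at all 3 ages. At 2M, 4M and 6M, 12%, 15.6% and 18.8% of all genes tested were called higher. The sum in NOD.H-2b was 5.43, 3.33 and 4.70 CPM at 2M, 0.968, 4.42 and 3.02 CPM at 4M, and 2.55, 2.36 and 1.93 CPM at 6M. In BALB/c it was 0.115, 0.323 and 0.0882 CPM at 2M, 0.405, 0.325 and 0.835 CPM at 4M, and 0.408, 0.0639 and 0.281 CPM at 6M.

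Muc16 is also known from mesothelium. Of the 6 mesothelium markers Wt1 had 0 counts in each mouse, Upk3b and Upk1b had at most 3 and Lrrn4 had at most 4. Msln made up 92.4% of the summed level. Msln and Krt19 were tested, with 2, 1 and 2 of the 2 called higher at 2M, 4M and 6M. Krt19 is also on the duct list, and Msln is also on the list of mucin partners below. Among all genes tested, 12%, 15.6% and 18.8% were called higher at these ages. The sum of the mesothelium markers in NOD.H-2b was 0.755, 0.457 and 0.754 CPM at 2M, 14.4, 9.22 and 8.01 CPM at 4M, and 26.7, 16.5 and 16.7 CPM at 6M. In BALB/c it was 0.191, 0.0359 and 0.0705 CPM at 2M, 0.350, 2.07 and 1.12 CPM at 4M, and 0.161, 0.426 and 0.164 CPM at 6M. The part of these epithelia in the Muc4 and Muc16 results was not tested.

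Msln encodes mesothelin, the surface protein that binds Muc16. At 2M Msln had 0 counts in each BALB/c mouse and 23, 13 and 28 counts in NOD.H-2b, at least 18.5-fold above the floor over the BALB/c group. At 4M it had 1, 66 and 7 counts in BALB/c and 908, 572 and 368 counts in NOD.H-2b, with a log2 fold change of 4.45 (edgeR FDR 0.0340) that ran from 3.87 to 7.20 with each mouse left out in turn and passed the FDR in only 1 of these 6 fits. At 6M Msln had 7, 0 and 0 counts in BALB/c and 1986, 907 and 930 counts in NOD.H-2b. Replicate 1 of NOD.H-2b had the most counts of both Msln and Muc16 at 4M and 6M. Of the NOD.H-2b mice at each of these ages, replicate 1 also had the highest B cell, T cell and macrophage sums. It had the lowest secretory and duct sums as well.

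Among 18 partners of membrane mucins, 4, 5 and 6 were called higher and 0, 0 and 1 lower at 2M, 4M and 6M, beside 12%, 15.6% and 18.8% of all genes tested called higher and 3.76%, 4.72% and 6.03% lower. By the FDR alone 9, 7 and 10 were higher and 3, 5 and 7 lower, where 22.5%, 23.4% and 28.6% of all genes were higher and 17.2%, 19.2% and 25.8% lower. Their median log2 fold change was 0.22, 0.25 and 0.45, where the median of all genes tested was 0.0099, 0.00034 and -0.0041. Met, the receptor bound by Muc20, changed by -0.56, -0.99 and -1.14 on the log2 scale, and Erbb2, the receptor bound by Muc4, changed by -0.25, -0.65 and -0.86. Icam1, a ligand of Muc1, rose by 2.62, 3.02 and 3.86, and Lgals3, a lectin that binds mucin glycans, rose by 2.41, 2.32 and 2.78. Rdx, which links membrane proteins to actin, changed by -0.25, -0.43 and -0.54.

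Of 29 enzymes and carriers listed for glycan extension, 21, 23 and 23 were tested at 2M, 4M and 6M. The list was drawn up for mucin O-glycans, but some of its genes, B3gnt5 among them, act on other glycans. Called higher were 7, 12 and 15 and lower 1, 2 and 1, beside 12%, 15.6% and 18.8% of all genes tested called higher and 3.76%, 4.72% and 6.03% lower. By the FDR alone 9, 15 and 15 were higher and 3, 3 and 3 lower, where 22.5%, 23.4% and 28.6% of all genes were higher and 17.2%, 19.2% and 25.8% lower. Enrichment was not tested, and the median log2 fold change was 0.43, 1.28 and 1.65. B cell, T cell and macrophage markers were higher at the same ages. The part of immune cells in the values of the glycan extension genes and of the mucin partners was not tested. B3gnt5 had 2, 3 and 0 counts in BALB/c and 12, 83 and 38 counts in NOD.H-2b at 2M, 3, 4 and 5 against 1093, 734 and 322 counts at 4M, and 4, 1 and 4 against 1744, 621 and 979 counts at 6M. B3gnt3 had 1, 4 and 2 counts in BALB/c and 55, 67 and 85 counts in NOD.H-2b at 2M. The ratio of its summed counts was 25.6 at 2M (95% counting interval 12.2 to 64.5) and 33.5 at 4M (16.8 to 78.3). At 6M it was 157 (43.2 to 1303), which rests on 2 BALB/c counts. B3galt5 rose by 4.37, 2.21 and 1.79 on the log2 scale, and at 4M the value ran from 1.84 to 3.13 with each mouse left out in turn. St6galnac2, a sialyltransferase gene, changed by -1.48, -1.32 and -1.99, and Slc35a2, the UDP-galactose transporter gene, changed by -0.27, -0.30 and -0.38, past the FDR in 3 of the 6 fits without a single mouse at 4M and in 5 of 6 at 6M.

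Of the 14, 15 and 15 enzymes that start mucin O-glycans and were tested, 1, 2 and 5 were called higher and 0 lower, beside 12%, 15.6% and 18.8% of all genes tested called higher and 3.76%, 4.72% and 6.03% lower. By the FDR alone 5, 3 and 5 were higher and 4, 4 and 4 lower, where 22.5%, 23.4% and 28.6% of all genes were higher and 17.2%, 19.2% and 25.8% lower, and the median log2 fold change was 0.23, 0.18 and 0.18. Galnt6 rose by 3.15, 3.70 and 4.37 and Galnt1 by 0.51, 0.93 and 1.04 on the log2 scale. Galnt3 changed by -0.48, -0.44 and -0.61, Galnt4 by -0.64, -0.61 and -0.75, and Galnt10 by -0.41, -0.70 and -0.996.

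At 4M and 6M most tested genes of the mucous cell program were lower in NOD.H-2b by the FDR, but few by 2-fold or more. The trefoil factor genes, Clca1 and Zg16 had too few counts to be tested, so these results do not speak for them or for mucous cells as such. Of the 7, 7 and 6 tested, 1, 1 and 0 were called higher and 0, 1 and 1 lower, beside 12%, 15.6% and 18.8% of all genes tested called higher and 3.76%, 4.72% and 6.03% lower. By the FDR alone 1, 1 and 0 were higher and 3, 6 and 5 lower, where 17.2%, 19.2% and 25.8% of all genes were lower. The median log2 fold change was -0.26, -0.73 and -0.66. Fcgbp, whose protein binds mucus gels, changed by -0.47, -1.69 and -1.71 on the log2 scale, Agr2 by -0.42, -0.51 and -0.77, and Creb3l1 by -0.26, -0.73 and -0.55. The decrease at 2M passed the FDR in 2 of the 6 fits without a single mouse for Fcgbp and in 4 of 6 for Creb3l1. Epithelial marker sums differed by age. At 2M the secretory list summed to 143574, 155247 and 148379 CPM in NOD.H-2b and 177598, 178563 and 188802 CPM in BALB/c, at 4M to 140861, 156720 and 150693 against 157243, 162785 and 147591, and at 6M to 109543, 131074 and 132158 against 159280, 154003 and 170875. The duct list summed to 1028, 876 and 940 CPM in NOD.H-2b and 923, 923 and 876 CPM in BALB/c at 2M, to 665, 827 and 862 against 973, 1048 and 970 at 4M, and to 578, 689 and 619 against 975, 951 and 949 at 6M. The strains overlapped in the duct sum at 2M and in the secretory sum at 4M. Ehf, Krt8 and Krt18 made up most of the duct sum, and Scgb2b7, Scgb2b2 and Scgb2b24 most of the secretory sum. Of the 11 duct genes tested at 2M 3 were called higher and 2 lower. Of the 12 duct genes 0 were called higher and 2 lower at 4M, and 3 higher and 1 lower at 6M. By the FDR alone 6, 0 and 3 duct genes were higher and 3, 5 and 7 lower at 2M, 4M and 6M. Of the 13 secretory genes 2 were called higher and 2 lower at 6M, and by the FDR alone 2 were higher and 8 lower. By the FDR alone 22.5%, 23.4% and 28.6% of all genes were higher at 2M, 4M and 6M and 17.2%, 19.2% and 25.8% lower. The part of epithelial cell numbers in the values of the mucous cell genes was not tested. The other mucins had 9 genes tested at each age, with 1, 1 and 2 called higher and 0 lower. Of all genes tested 12%, 15.6% and 18.8% were called higher and 3.76%, 4.72% and 6.03% lower. By the FDR alone 1, 1 and 2 of the other mucins were higher and 2, 1 and 4 lower. The shares of all genes by the FDR alone were 22.5%, 23.4% and 28.6% higher and 17.2%, 19.2% and 25.8% lower. The median log2 fold change of the other mucins was -0.25, -0.25 and -0.48.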

How the data were processed

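RNA-seq of whole LGs from 18 male mice was analyzed. Per the labels, the authors depleted ribosomal RNA, trimmed paired reads (cutadapt), placed them on GRCm38 (STAR) and made the deposited raw counts per gene (HTSeq). The second deposited table holds log2 values made by the authors from the counts and DESeq2 size factors, and it served only to check the scale. The sources used here do not give the tool versions, the annotation release, whether counting was stranded, or how multimapping reads were handled.

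Counts were analyzed in R 4.3.3 with edgeR 4.0.16 and limma 3.58.1, using TMM, filterByExpr (minimum count 10, minimum total 15) and robust quasi-likelihood F tests. Benjamini-Hochberg adjustment covered all genes tested. Each comparison used its own 6 mice, except strain by age and the average over the ages, which used all 18. A standard error is the size of the log2 fold change over the root of F. Totals per mouse ran from 49480781 to 103936830 counts, and the chi-square per gene between pairs of mice in a group was 16.4 to 83.4, where counting error alone gives about 1. Exon lengths are unions of GENCODE M21, which held 54165 of the 54232 gene IDs. Ratios of summed counts have exact 95% Poisson intervals. The steps were tested on simulated data, and no mouse was left out. No outcome of the simulation is given here, so it does not speak for the tests of genes with counts as low as those of the mucin genes.

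Alternatives were DESeq2 size factors, upper quartile scaling, no filter, at least 10 counts in every mouse, the Wald test of DESeq2 1.42.0, the replicate block, a single fit of all 18 mice, only the 12 mice of 2M and 6M for strain by age, a prior count of 0.5 in place of 2 for the genes ranked by r, and leaving out each mouse. The average over the ages, the exact permutation test (also on counts and on log2 of CPM plus 0.02), mean CPM under DESeq2 size factors and the ratios were added after the data were seen. The members and lists were chosen with earlier results of these data known.

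Named genes are the 8 mucins and, from each related list, up to 3 higher and 3 lower genes, ranked by the mean log2 fold change over the ages, that passed the FDR the same way at every age. The rule also names the 3 genes most like Muc1 and Muc20 by each measure (average log2 CPM of at least 0), and the most abundant and the near-absent genes of the other mucins and of each marker list. Other genes were chosen after their values were seen.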

Additional observations from a re-analysis of the deposited data

Results flagged for a closer look

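Strain by age was examined here only for the mucin genes and the genes of the related lists named by the rule. For 3 of these the strain difference at 6M differed from that at 2M at least 2-fold, by the edgeR quasi-likelihood test with an FDR under 0.05. More genes of the lists were called in that test, where 5.11% of all genes were called. Among the 25 genes tested of the glycan extension list 8 were called higher and 2 lower. B3galt5, which adds galactose to glycans, changed by -2.57 on the log2 scale (edgeR FDR 0.02), with a log2 fold change of 4.37 at 2M and 1.79 at 6M. B3galt5 had 4, 2 and 3 counts in BALB/c at 2M and 53, 20 and 14 counts at 6M. Fcgbp, which encodes a mucus protein, changed by -1.23 (edgeR FDR 0.00241), from -0.47 at 2M to -1.71 at 6M. Icam1, which encodes a ligand of Muc1, changed by 1.25 (edgeR FDR 0.0164), from 2.62 at 2M to 3.86 at 6M. Neither Muc1 nor Muc20 met this criterion, and the cause of these changes was not tested.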

How the results depend on the processing

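Over the alternatives, 604 log2 fold changes kept their direction and side of the threshold, 3 turned, 7 newly passed and 3 no longer passed. Muc1 was called in each strain comparison under every alternative that tested it, and Muc20 was called at 6M likewise. The number of mucin genes called moved with the filter. With no filter on low counts it was 2 at 2M and 2 at 4M, where Muc20 joined Muc1, 4 at 6M and 4 in the average over the ages, of 7, 6, 8 and 8 mucin genes tested. Of all genes, 2561, 3290, 4121 and 4269 were called higher and 824, 1001, 1334 and 1312 lower, of 28659, 29308, 29828 and 32780 tested. At 6M the additions were Muc4 (edgeR FDR 0.0209) and Muc16 (edgeR FDR 0.0359), and in the average they were Muc4 (edgeR FDR 0.00239) and Muc15 (edgeR FDR 0.00128). A single fit of all 18 mice called 2 at 2M. Leaving out each mouse gave 1 to 2 called at 2M, with 2 without replicate 2 of BALB/c or replicate 1 of NOD.H-2b, and 1 to 2 at 4M. In the average over the ages it gave 2 to 3, since Muc4 passed the filter and was called in every such fit except those without replicate 2 of NOD.H-2b at 4M or replicate 1 of NOD.H-2b at 6M.

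At 4M the log2 fold change of Muc20 was 1.35 with no filter (edgeR FDR 0.0295, from 0.0124 to 0.201 over the alternatives). Its strain by age value of 0.24 turned to -2.14 without replicate 2 of BALB/c at 2M, to -0.21 without replicate 1 of NOD.H-2b at 2M and to -0.0047 without replicate 3 of BALB/c at 6M. Without single mice it ranged from -2.14 to 0.73, and the cause was not tested.

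With the replicate number as a pairing block, 1, 1 and 2 mucin genes were called at 2M, 4M and 6M, and the correlations of like-numbered pairs lay between -0.30 and 0.30. In the strain comparisons no mucin gene had at least 10 counts in every mouse, so that filter gave no value there.

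Msln missed the threshold at 2M in the fit of 18 mice (edgeR FDR 0.0635, from 7.52e-09 to 0.0635 over the alternatives). At 4M its FDR ranged from 0.000886 to 0.0877. Without a single mouse, the exact permutation p ranged from 0.001 to 0.00875 for Muc4, 0.00075 to 0.0025 for Muc20 and 0.048 to 0.297 for Muc13, whose lowest value was without replicate 3 of BALB/c at 6M. Muc1, Muc15 and Muc16 were at the smallest p their counts allow, so such a range says little of them. With a prior count of 0.5, 8 of the 12 genes ranked by r were the same.

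With 874 mucin counts in all and 3 mice per group, small differences in the sparse mucins were out of reach. The counts do not show which cell type a transcript came from. GRCm38 is the genome of C57BL/6J, and how well reads of either strain align to the mucin genes was not tested.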

Other observations

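Of the mucin genes outside the 8, 3 were singled out after their values were seen. Muc3a had 3, 0 and 0 counts in BALB/c and 2, 2 and 2 counts in NOD.H-2b at 2M. At 4M Muc3a had 2, 3 and 1 counts in BALB/c and 27, 34 and 9 counts in NOD.H-2b, and at 6M it had 9, 1 and 0 counts against 67, 21 and 27. Mucl1 had 3 counts in each BALB/c mouse and 22, 32 and 40 counts in NOD.H-2b at 2M. At 4M Mucl1 had 1, 3 and 2 counts in BALB/c and 3, 8 and 7 counts in NOD.H-2b. At 6M Mucl1 had 3, 0 and 0 counts in BALB/c and 4, 2 and 8 counts in NOD.H-2b. Muc2, the gel-forming mucin of the gut, had between 1 and 10 counts in each of the 18 mice.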
